A study of Mus musculus with 4 samples.

Results

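Chaperones and heat shock proteins were read here as every listed gene whose symbol belongs to the HSP90, HSP70, HSP110, small heat shock protein, chaperonin or J protein families and whose mean was at least 1 FPKM over the 4 libraries. FPKM counts fragments per kilobase of transcript, scaled to the mapped depth of the library. Of 82 listed genes with such a symbol, 63 met the minimum, out of 10066 genes of the series that did so. The other 19 were under it, 7 of them listed at 0 in all 4 lines. Symbol and level chose the members, and the choice was made with earlier results of these data known. The members just inside the minimum were Hspb9 with a mean of 1.02 FPKM and Dnajc28 with 1.03, and just outside it was Dnajb13 with 0.975.

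The 4 libraries come from 4 BXH-2 mouse cell lines of acute myeloid leukaemia (AML), 1 library per line. The parents B117P and B140P respond to cytarabine (Ara-C), a nucleoside drug used against AML, and the labels put their IC50 at about 150 ng/ml and 110 ng/ml. B117H, derived from B117P, and B140H, derived from B140P, are highly resistant, with IC50 values of about 160 µg/ml and 60 µg/ml. The labels of all 4 lines name rising Ara-C doses as the treatment and drug-free medium for passage. A parental line and its derivative are called a lineage, and each resistant line is 1 selected line. The comparisons ask how resistant lines differ from the lines they came from.

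Chaperones bind unfolded or unfinished proteins and use cycles of ATP to help them fold, to keep them from clumping or to pass them on for degradation. HSP70 proteins do most of this work, J proteins bring them their clients and start their ATP cycle, and HSP110 proteins exchange their nucleotide. HSP90 acts later on kinases, receptors and other signalling proteins, while chaperonins are barrels in which whole proteins fold. Each compartment of the cell has its own set: the cytosol and nucleus, the endoplasmic reticulum (ER) and the mitochondrion. The factor HSF1 induces the cytosolic set after heat or proteotoxic stress through heat shock elements, and the ER set is induced by unfolded protein in the ER through ER stress elements.

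The upstream sequences of the members were searched for both elements. The matches are shown because elements of this kind are known to control the inducible sets. Whether a match acts in these lines was not tested. Promoter windows of RefSeq on GRCm38.p6, 250 bases before and 50 after each listed start, were found for 51 of the 63 members. A heat shock element was searched as 3 alternating units of GAA and TTC with 2 bases of any kind between them, starting with either unit. An ER stress element was searched as CCAAT, 9 bases of any kind and CCACG. Both strands were read, and the motifs were searched separately. The 30 bases around each match follow, 5′ to 3′ on the strand of the gene, with the match in capitals.
Hspe1, heat shock element: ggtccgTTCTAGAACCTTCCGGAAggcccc
Dnajb6, heat shock element: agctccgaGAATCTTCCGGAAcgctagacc
Hsph1, heat shock element: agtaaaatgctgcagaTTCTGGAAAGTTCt
Hspa5, ER stress element: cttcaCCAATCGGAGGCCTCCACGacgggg
Hsp90b1, distal ER stress element: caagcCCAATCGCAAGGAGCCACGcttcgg
Hsp90b1, proximal ER stress element: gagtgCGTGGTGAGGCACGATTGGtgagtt
Dnajc3, ER stress element: cacaaCCAATCAGCGCCAACCACGacccgg

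The 3-unit heat shock element was found in 4 of the 51 members, 7.84%, and in 179 of 27025 genes with a window, 0.662%. The 4 were Hspd1, Hspe1, Dnajb6 and Hsph1. The search did not find it in every HSF1-induced member: the windows of Dnaja1 and Hspa1b matched 2 units only. Hspd1 and Hspe1 share 1 element, since these genes lie head to head on chromosome 1, and its 18 bases hold 2 overlapping matches within chr1:55088053-55088082 (plus strand for Hspe1, minus for Hspd1). The Dnajb6 window is chr5:29735844-29735873 (plus) and the Hsph1 window chr5:149636287-149636316 (minus), where the match lies after the listed start. The element of Hspd1 and Hspe1 lies in an annotated first exon of Hspd1, and those of Dnajb6 and Hsph1 in exons of their own genes.

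The ER stress element was found in 3 members, 5.88%, and in 37 of the 27025 genes, 0.137%. All 3 encode ER proteins, Hspa5, Hsp90b1 and Dnajc3. The element of Hspa5 lies in an annotated exon of that gene. The Hspa5 window is chr2:34772020-34772049 (plus), the Hsp90b1 windows are chr10:86705632-86705661 and chr10:86705527-86705556 (minus), and the Dnajc3 window is chr14:118937822-118937851 (plus). For Hsp90b1 and Dnajc3 the bases upstream of the first annotated exon are given in full, as chr10:86705510-86705694 (minus, 185 bases) and chr14:118937682-118937931 (plus, 250 bases), so that the spacing of the elements can be read.
Hsp90b1: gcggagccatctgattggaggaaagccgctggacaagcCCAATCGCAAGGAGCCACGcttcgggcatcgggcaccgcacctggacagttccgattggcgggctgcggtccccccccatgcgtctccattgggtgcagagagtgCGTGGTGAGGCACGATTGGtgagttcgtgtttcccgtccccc
Dnajc3: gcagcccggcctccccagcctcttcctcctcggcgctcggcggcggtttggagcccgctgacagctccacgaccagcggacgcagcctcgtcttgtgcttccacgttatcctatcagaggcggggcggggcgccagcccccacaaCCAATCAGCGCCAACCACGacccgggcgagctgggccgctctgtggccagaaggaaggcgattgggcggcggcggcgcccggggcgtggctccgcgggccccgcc

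The files hold FPKM and no counts. The spacing of low values in long genes with a single transcript gave estimated depths from 19150000 to 24540000 fragments per library, searched from 10000000 to 30000000. A search up to 40000000 gave 39840000 for B117H and 38260000 for B140P, about double, and left the other lines as they were. Small RNA genes took from 17.4% to 98.1% of a library's summed FPKM. Ptprc, the pan-leukocyte marker CD45, was at 50.1 FPKM or more in every line, and the T cell, stromal and epithelial markers listed were at 0.133 FPKM or less in every line. The B cell marker Cd79a met the minimum, at 6.63 FPKM in B140P and 16.1 in B140H. Of 3 erythroid markers Hba-a1 met it, at 1.28 to 3.59 FPKM. All 8 myeloid markers met the minimum, and their summed FPKM was 2162 in B117P, 816 in B117H, 258 in B140P and 195 in B140H. In lineage B117 Mpo, Elane and Prtn3 fell past 2-fold, and in lineage B140 Mpo and Cd33 did. Kit was listed at 0 in both B140 lines, whereas Cd33 was higher in both of them than in both B117 lines. The part of these marker differences in the results below was not tested. Over the 10066 expressed genes the log2 ratio had a median of -0.03 for B117H against B117P and 0.11 for B140H against B140P, and ratios below are read against those medians. Log2 ratios are of (FPKM + 1), in the resistant line over its parent unless other lines are named, which understates the change of low genes, while ratios of FPKM are plain. A gene is said to have risen or fallen when that ratio reached 2-fold. With 1 library per line no value has a replicate error, and fewer cells of a kind cannot be told apart from less RNA per cell.

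In 29 of the 63 members (46.0%) the highest of the 4 FPKM values was under 1.5 times the lowest, beside 35.8% of all expressed genes. In 44 (69.8%) it was under 2 times, beside 65.8% of all expressed genes, and in the other 19 it was 2 times or more. Members were also more abundant, with a median mean of 28.7 FPKM against 13.3 for all expressed genes. The part of level in these shares was not tested. The members together made up between 1.51% and 1.69% of the FPKM total of a line when small RNA genes were left out. The 5 most abundant members held between 47.7% and 52.0% of that sum.

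In B117H, 3 members (4.76%) passed the 2-fold rule, beside 4.62% of all expressed genes (1.41% higher and 3.21% lower). Cct5 and Dnajc21 fell and Dnajb4 rose. In B140H, 4 members (6.35%) passed it, all of them higher, beside 3.94% of all expressed genes (2.31% higher and 1.63% lower). These were Hspa1b, Dnajb14, Dnajc30 and Dnajc4. No member passed in both lineages. Of the 10066 expressed genes 72 did, so few that the lack of such a member is no contrast with them. Both shares of members lay near those of all genes. The members' own median was -0.04 for the B117 lines and 0.16 for the B140 lines.

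**Figure D1:**
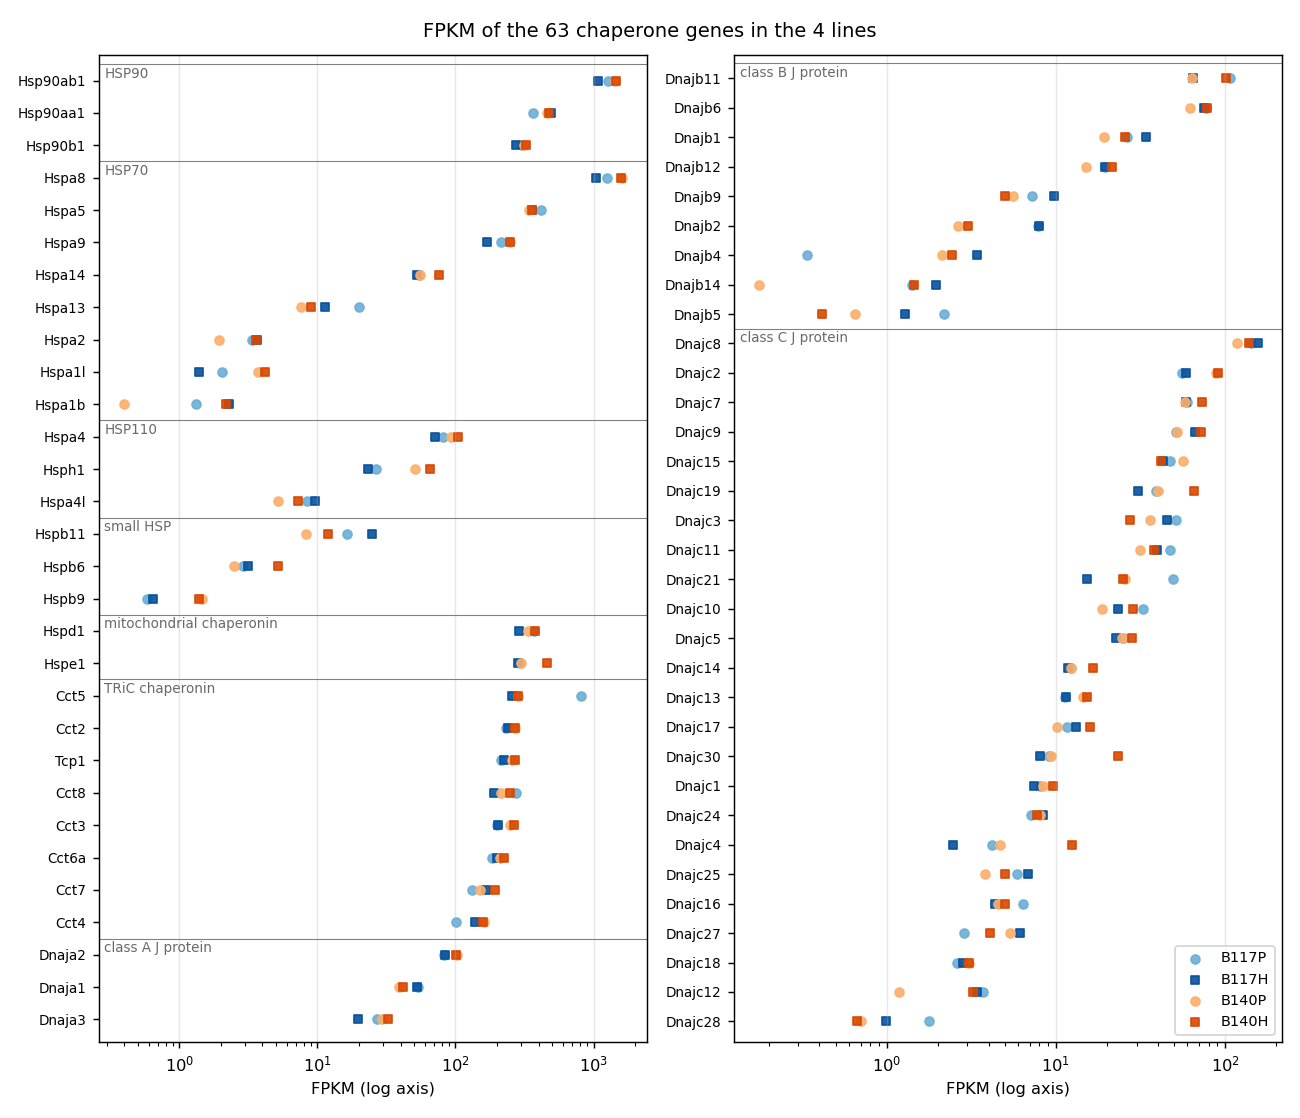
FPKM (log axis) of the 63 members in B117P, B117H, B140P and B140H, 1 point per library, grouped by family and ordered by mean. Most members have their 4 points close together, while Cct5 in B117P, Dnajb4 in B117P and Dnajb14 in B140P stand away from the other lines.

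The HSP90 family had 3 members, none of which passed the rule. Hsp90ab1, the constitutive cytosolic form, was at 1272 FPKM in B117P, 1081 in B117H, 1427 in B140P and 1462 in B140H. Hsp90aa1, the inducible cytosolic form, was at 363, 489.7, 460.3 and 475 FPKM in the same order. Hsp90b1, the ER form known as GRP94, was at 305, 273, 314 and 323 FPKM. B117P was the lowest line for Hsp90aa1, and B117H was the lowest for Hsp90ab1 and Hsp90b1. The ratio of Hsp90ab1 to Hsp90aa1 was 3.51 in B117P and 2.21 in B117H, against 3.101 and 3.075 in lineage B140. In the Hsp90aa1 transcript 58.5% of 50-base stretches also occur in other annotated genes, mostly a pseudogene, so its level depends on how shared reads were placed.

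The HSP70 family was carried by 3 members, each the main HSP70 of its compartment. Hspa8, the constitutive HSC70 of the cytosol, was at 1244, 1043, 1609 and 1571 FPKM in B117P, B117H, B140P and B140H and had the highest mean of all members. Hspa5, the ER chaperone BiP, was at 414, 359, 342 and 355 FPKM. Hspa9, the mitochondrial form mortalin, was at 214, 169, 246 and 249.5 FPKM. In lineage B117 all 3 were lower in the resistant line, by log2 ratios between -0.34 and -0.20, and in lineage B140 all 3 were within 0.06 of 0. In Hspa8 74.8% of 50-base stretches occur in other genes, most of them pseudogenes.

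The heat-inducible HSP70 genes were near the floor. Hspa1a was listed at no more than 0.0183 FPKM in any line. Hspa1b was at 1.31 FPKM in B117P, 2.27 in B117H, 0.395 in B140P and 2.17 in B140H. B140P was thus the lowest of the 4, and the B140H value was within the range of the B117 lines. The ratio of Hspa1b FPKM in lineage B140 was 5.50, with a 95% counting interval of 3.49 to 9.21 from an estimated 149 and 21 fragments, and the log2 ratio was 1.19. With the deeper estimate B140P had 42 fragments and the interval ran from 3.90 to 7.99. Counting intervals here are exact Clopper-Pearson intervals on estimated fragments, cover counting error only and say nothing of variation between cultures. Hspa1a and Hspa1b are nearly the same gene, with 62.3% of the 50-base stretches of Hspa1b also in Hspa1a, so the sum of the pair is better known than its parts.

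The other HSP70 members were low or moderate. Hspa14, which works at the ribosome, was at 54.3, 52.6, 55.5 and 76.2 FPKM in B117P, B117H, B140P and B140H. Hspa13, an ER-associated form also called STCH, was at 20.2, 11.3, 7.61 and 8.97 FPKM, with the highest value in B117P. Hspa2, best known from testis, was at 3.34, 3.62, 1.95 and 3.56 FPKM. Hspa1l was at 2.04, 1.39, 3.71 and 4.18 FPKM, higher in both B140 lines, but 71.4% of its 50-base stretches are shared with another gene. Hspa12a and Hspa12b were under the minimum.

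The HSP110 members are the nucleotide exchange partners of cytosolic HSP70, and of the 3 Hsph1 plainly differed more between lineages than within them. Hspa4 was at 80.8, 71.1, 92.5 and 104 FPKM in B117P, B117H, B140P and B140H. Hsph1, the heat-inducible member with the element shown above, was at 26.6, 23.4, 50.5 and 65.8 FPKM, so both B140 lines were above both B117 lines. Hspa4l was at 8.42, 9.57, 5.15 and 7.19 FPKM. Within a lineage the log2 ratios of the 3 genes were between -0.18 and 0.41. None passed the rule.

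Small heat shock proteins, which hold unfolded proteins without ATP, were scarce. Of 8 listed, 3 met the minimum. Hspb1, the HSP25 of the mouse and the best known of them, was listed at 0 in B117P and B140H and was at 0.439 FPKM in B117H and 0.0656 in B140P. Hspb8 was listed at 0 in every line. Hspb6 was at 2.87, 3.13, 2.50 and 5.16 FPKM and Hspb9 at 0.584, 0.649, 1.45 and 1.39 FPKM in B117P, B117H, B140P and B140H. Hspb11, which despite its name is the intraflagellar transport protein IFT25, was at 16.3, 25.0, 8.20 and 11.9 FPKM, higher in each resistant line than in its parent and in both B117 lines than in both B140 lines.

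The mitochondrial chaperonin is a barrel of HSP60, encoded by Hspd1, with a lid of HSP10, encoded by Hspe1. Hspd1 was at 367, 289.6, 337 and 375 FPKM in B117P, B117H, B140P and B140H, and Hspe1 at 291, 283, 299 and 457 FPKM. The ratio of Hspd1 to Hspe1 was 1.26, 1.02, 1.12 and 0.821 in the same order. B140H was the only line with more Hspe1 than Hspd1, although the genes share the upstream region and the element shown above. In each transcript 44.8% of the 50-base stretches also occur in other annotated genes.

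TRiC, the chaperonin of the cytosol that folds actin and tubulin, is built from equal numbers of 8 different subunits, and in 3 of the 4 lines their genes had similar levels. The 8 subunits ran from 139 to 255 FPKM in B117H, from 149.9 to 284 in B140P and from 159 to 285 in B140H. The coefficient of variation across subunits was 18.9%, 22.1% and 18.4% in these lines. In B117P they ran from 101 to 811 FPKM and the coefficient of variation was 84.2%. Without Cct5 that value in B117P was 31.2%.

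Cct5, the epsilon subunit, fell from 811 FPKM in B117P to 255 in B117H and was at 284 and 285 FPKM in B140P and B140H. B117P was the line that stood apart, and the other 3 lay together. In B117P Cct5 was 4.06 times the median of the other 7 subunits, and in B117H, B140P and B140H it was 1.27, 1.34 and 1.15 times that median. Its log2 ratios were -1.66 (B117) and 0.01 (B140). The B117H to B117P ratio of FPKM was 0.315, and its counting interval ran from 0.308 to 0.322. No 50-base stretch of Cct5 was found in another annotated gene. On the mm9 build Cct5 spans chr15:31520639-31531559.

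**Figure D2:**
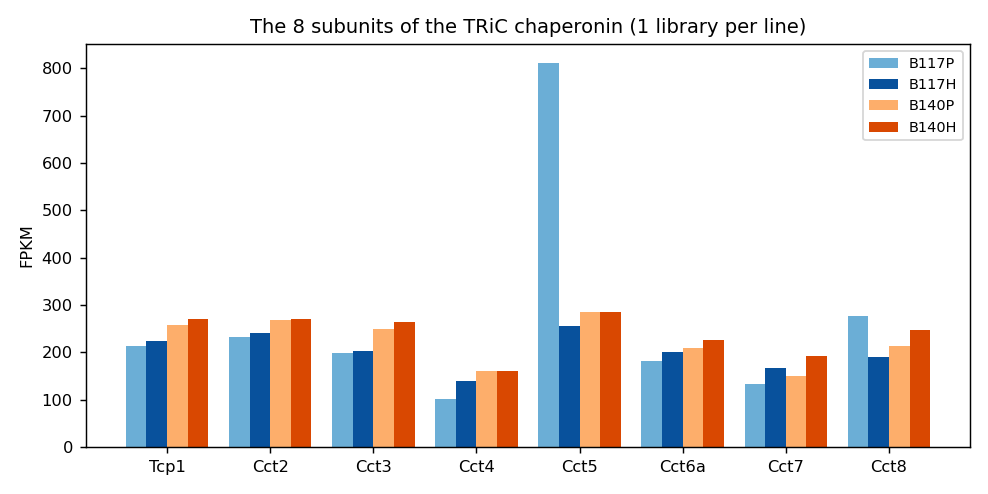
FPKM of the 8 TRiC subunit genes, 1 bar per library in B117P, B117H, B140P and B140H, on an axis from 0. The Cct5 bar of B117P reaches 811 FPKM, while its other 3 bars lie between 255 and 285.

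The other 7 TRiC genes did not pass the rule. Tcp1, the alpha subunit, was at 213, 223, 257 and 271 FPKM in B117P, B117H, B140P and B140H, and Cct2 at 233, 241, 268 and 270.0 FPKM. Cct3 was at 199, 203, 249 and 264 FPKM and Cct6a at 182, 200.4, 209 and 225 FPKM. These 4 had log2 ratios between 0.01 and 0.13 in both lineages. Cct7 was at 132, 168, 149.9 and 192 FPKM, with ratios of 0.34 and 0.35. Cct4 was at 101, 139, 160.2 and 159 FPKM, lowest in B117P. Cct8 was at 276, 189.6, 213 and 248 FPKM, highest in B117P, and its listed span overlaps Usp16. Cct6b, a testis form, was at 0.132 FPKM at most.

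The class A J proteins have the full domain layout of bacterial DnaJ, and none of the 3 passed the rule. Dnaja2 was at 83.2, 84.4, 102 and 101 FPKM in B117P, B117H, B140P and B140H, and Dnaja1, a main partner of Hspa8, at 53.1, 52.7, 38.7 and 41.5 FPKM. Within a lineage these 2 differed by log2 ratios of 0.10 at most. Dnaja3, the mitochondrial J protein, was at 26.9, 19.7, 29.3 and 32.6 FPKM.

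Of 9 class B J proteins, 1 (11.1%) rose in each lineage, and both were among the least abundant. Of all expressed genes 1.41% rose in lineage B117 and 2.31% in lineage B140, but 1 gene of 9 is no result about the class. Dnajb4, a cytosolic partner of HSP70, went from 0.338 FPKM in B117P to 3.43 in B117H and was at 2.13 and 2.42 FPKM in B140P and B140H. B117P was again the line that stood apart. The FPKM ratio was 10.2, with a counting interval of 6.16 to 16.9 on an estimated 166 and 19 fragments, and the log2 ratio was 1.73. Dnajb14, an ER membrane J protein, was at 1.41 and 1.95 FPKM in lineage B117, 0.176 in B140P and 1.45 in B140H. Here B140P was low and the other 3 lay between 1.41 and 1.95. Its FPKM ratio in lineage B140 was 8.25, with a counting interval of 5.73 to 12.2 on an estimated 338 and 32 fragments, and its log2 ratio of 1.06 became 0.95 once the lineage was centred on its median.

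Dnajb11, the ER partner of BiP called ERdj3, was at 107 FPKM in B117P, 64.9 in B117H, 64.2 in B140P and 102 in B140H. The order of parent and derivative was thus opposite in the lineages, with log2 ratios of -0.71 and 0.65. Dnajb1, the heat-inducible HSP40, was at 26.2, 34.3, 19.3 and 25.8 FPKM and was higher in each resistant line, with ratios of 0.37 and 0.40. Dnajb9, the ER stress gene ERdj4, was at 7.27, 9.81, 5.56 and 5.03 FPKM. Dnajb6, which holds back aggregation, was at 77.3, 75.1, 61.8 and 78.7 FPKM, and Dnajb12, in the ER membrane, at 19.6, 19.5, 15.02 and 21.3 FPKM. Dnajb2 was at 7.86 and 7.93 FPKM in the B117 lines and at 2.63 and 3.04 in the B140 lines. It differed between lineages and hardly within them. Dnajb5 was at 2.17, 1.27, 0.648 and 0.417 FPKM.

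Class C J proteins share only the J domain and do specialised work. Of 24, 1 (4.17%) fell in lineage B117, beside 3.21% of all expressed genes. In lineage B140 2 (8.33%) rose, beside 2.31% of all expressed genes, and so few genes are no result about the class. Dnajc21, a factor of ribosome assembly, fell from 49.0 FPKM in B117P to 15.2 in B117H and was at 25.7 and 25.1 FPKM in B140P and B140H. The ratio of FPKM was 0.310, its counting interval ran from 0.283 to 0.339, and the log2 ratio was -1.63. On mm9 Dnajc21 spans chr15:10376518-10400271, so it shares its chromosome with Cct5.

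Dnajc30, a mitochondrial J protein, was at 9.16 and 8.01 FPKM in lineage B117, 9.38 in B140P and 23.4 in B140H. Only B140H was high. The FPKM ratio in lineage B140 was 2.49, with a counting interval of 2.19 to 2.85, but 24.3% of its 50-base stretches are shared with other genes, mainly the neighbouring Bud23. Dnajc4 was at 4.17 FPKM in B117P, 2.46 in B117H, 4.64 in B140P and 12.5 in B140H. The parents were alike and the derivatives lay on opposite sides of them. Its log2 ratios were -0.58 and 1.26, and the FPKM ratio in lineage B140 was 2.69, with a counting interval of 2.07 to 3.52.

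The other class C members stayed under 2-fold in both lineages. Dnajc8, part of the splicing machinery, was at 142, 156, 116.99 and 139 FPKM in B117P, B117H, B140P and B140H. Dnajc2, which sits on the ribosome with Hspa14, was at 56.0, 58.8, 88.1 and 90.7 FPKM, higher in both B140 lines. Dnajc9, a histone chaperone, was at 51.4, 66.3, 52.3 and 72.5 FPKM, higher in each resistant line, with log2 ratios of 0.36 and 0.46. Dnajc19, of the mitochondrial import motor, was at 38.8, 30.5, 39.9 and 65.5 FPKM, and its span overlaps Fxr1. Its log2 ratios were -0.34 (B117) and 0.70 (B140). Dnajc27 was at 2.84, 6.16, 5.34 and 4.09 FPKM and Dnajc12 at 3.71, 3.44, 1.19 and 3.21 FPKM, each with 1 parental line lowest. In lineages B117 and B140 the log2 ratios were 0.90 and -0.32 for Dnajc27 and -0.09 and 0.95 for Dnajc12. Among the other members of the class the largest log2 ratio in size was 0.60, for Dnajc17 in lineage B140.

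**Figure D3:**
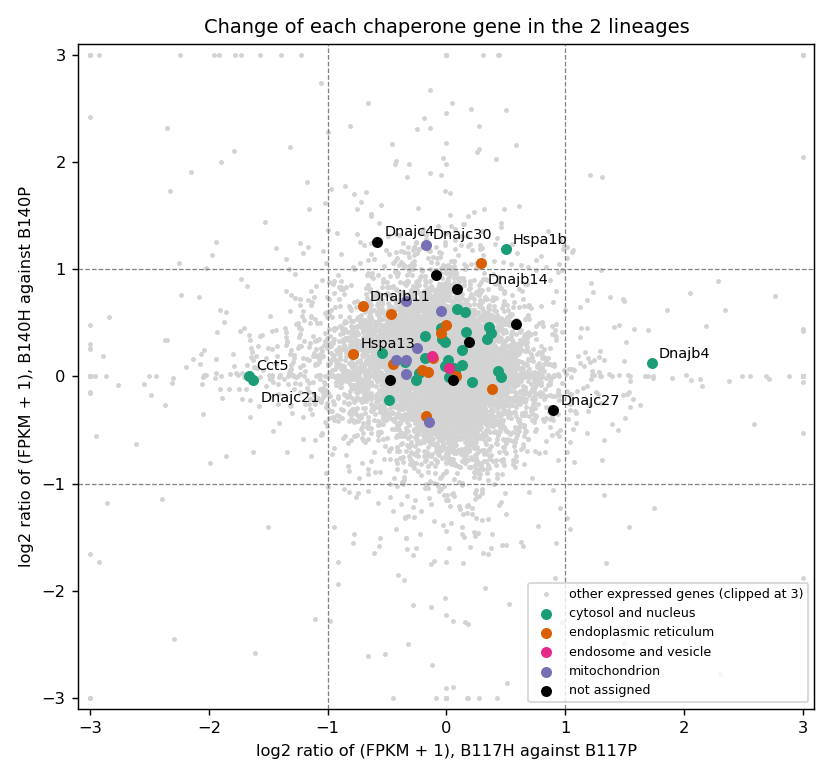
Log2 ratio of (FPKM + 1) in B117H against B117P (horizontal) and in B140H against B140P (vertical) for the 63 members, coloured by compartment, over the other expressed genes in grey, which are drawn at the edge when beyond 3. Dashed lines mark 2-fold. Cct5, Dnajc21 and Dnajb4 lie past it on the horizontal axis only, and Hspa1b, Dnajb14, Dnajc30 and Dnajc4 on the vertical axis only.

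By compartment, the 8 mitochondrial members lay below 0 in lineage B117 without exception, and 7 of the 8 lay above 0 in lineage B140 on the deposited scale. Their log2 ratios ran from -0.43 to -0.04 in the former, with a median of -0.29, and from -0.43 to 1.23 in the latter, with a median of 0.21. Of the 13 ER members, 10 lay below 0 in lineage B117 and 11 above 0 in lineage B140, with medians of -0.16 and 0.17. Of the 32 cytosolic and nuclear members, 13 lay below 0 in lineage B117 and 26 above 0 in lineage B140, with medians of 0.04 and 0.13. Among all expressed genes 46.3% were above 0 in lineage B117 and 63.004% in lineage B140. Of the 21 mitochondrial and ER members none passed the rule in lineage B117, beside 4.62% of all expressed genes. In lineage B140 Dnajc30 (12.5% of the mitochondrial members) and Dnajb14 (7.69% of the ER members) did, beside 3.94% of all expressed genes. Single genes are no result about a compartment. The signs in lineage B140 rest on the scaling. On TPM without small RNA genes the median of all genes there moved from 0.11 to -0.01, and 4 of 8 mitochondrial, 7 of 13 ER and 17 of 32 cytosolic and nuclear members lay above 0. On that scale 7 of the 8 mitochondrial and 9 of the 13 ER members lay below 0 in lineage B117. Relative to the median of all genes in lineage B140, 6 of 8 mitochondrial, 8 of 13 ER and 17 of 32 cytosolic and nuclear members were higher.

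The sum over members kept its division among compartments. Cytosolic and nuclear members held between 73.5% and 75.8% of the summed member FPKM of a line, mitochondrial ones between 12.9% and 14.8% and ER ones between 10.4% and 12.4%. The ER sum was 987 FPKM in B117P, 834 in B117H, 832 in B140P and 907 in B140H. The mitochondrial sum was 1042, 882, 1049 and 1283 FPKM in the same order, highest in B140H.

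The inducible groups were small, and few of their members passed the rule. Of 9 HSF1-induced members that met the minimum, none passed it in lineage B117 and only Hspa1b (11.1%) in lineage B140. Their medians were -0.04 and 0.16. Of 7 ER stress-induced members none passed in either lineage, with medians of -0.20 and 0.06. Of all expressed genes 4.62% passed in lineage B117 and 3.94% in lineage B140. Groups of this size are too small for such counts to be a result about them. On TPM without small RNA genes the medians were 0.00 and -0.00 for the first group and -0.16 and -0.10 for the second. Of the 9 HSF1-induced members, 6 lay below 0 in lineage B117 and 8 above 0 in lineage B140 (4 and 4 on that TPM scale). Of the 7 ER stress-induced members, 6 lay below 0 in lineage B117 and 5 above 0 in lineage B140 (6 and 3 on that scale). Among the 3 members with an ER stress element, Hspa5 and Hsp90b1 had log2 ratios from -0.20 to 0.06, and Dnajc3, a J protein of the ER lumen, was at 51.0, 45.2, 35.9 and 27.6 FPKM in B117P, B117H, B140P and B140H. Among those with a heat shock element, Hspe1 had the highest ratio, 0.61 in lineage B140. Hsf1, the inducing factor, was at 27.6, 23.3, 21.9 and 28.8 FPKM and Hsf2 at 5.47, 7.21, 5.22 and 5.42 FPKM.

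Of 76 expressed partners of the chaperones on 6 lists (co-chaperones, exchange factors, prefoldins, regulators, ER folding enzymes and mitochondrial proteases), 1 fell and none rose in lineage B117, 1.32% beside 4.62% of all expressed genes. None passed the rule in lineage B140, beside 3.94% of all expressed genes. Their median absolute log2 ratios, 0.24 and 0.26, were above those of the members, 0.19 and 0.21. Those of all expressed genes, 0.21 and 0.24, lay between. None of the 22 HSP90 co-chaperones passed in either lineage, with medians of -0.00 and 0.26. None of the 12 HSP70 exchange factors and co-factors did, with medians of -0.17 and 0.07, nor of the 8 prefoldins and TRiC helpers, with medians of 0.04 and 0.23. Of the 22 ER folding and ER stress genes, 18 lay below 0 in lineage B117, with a median of -0.32, and 16 above 0 in lineage B140, with a median of 0.22 (17 and 13 on TPM without small RNA genes). Txndc5, a disulfide isomerase of the ER, was the gene that fell, from 72.9 to 24.2 FPKM, and was at 71.4 and 93.5 FPKM in B140P and B140H. Its surroundings on chromosome 13 were also lower in B117H than in B117P. Txndc5 itself was at -1.55, its nearest expressed genes, up to 12 on either side, centred on -0.82, and the chromosome's 384 expressed genes on -0.44 (medians). How much of the fall goes with that shift was not tested. No such comparison is given here for the ER list as a whole. Of the 11 mitochondrial chaperones and proteases, 9 lay below 0 in lineage B117 and 10 above 0 in lineage B140, with medians of -0.17 and 0.34 (9 and 9 on that TPM scale).

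For 5 of the 7 members past the rule the genes around them had shifted in the same direction, by 0.80 or more in median log2 ratio. Between Dnajc21 and Cct5 lie 22 other expressed genes over 21.2 Mb of chromosome 15. All 22 were lower in B117H than in B117P, 19 of them past 2-fold, with a median log2 ratio of -1.42. In lineage B140 none of them fell past 2-fold and their median was 0.03. In B140P against B117P 21 of the 22 were lower, with a median of -1.36, and in B140H against B117H the median was 0.11. The whole segment was thus high in B117P beside the other 3 lines, as Cct5 and Dnajc21 were.

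Other members moved with their chromosomes in lineage B117. All 5 members on chromosome 16, Dnaja3, Dnajb11, Hspa13, Cct8 and Dnajc28, lay between -0.79 and -0.43, with a median of -0.54 beside -0.47 for the 323 other expressed genes there. All 4 on chromosome 12, Hsp90aa1, Dnajb9, Dnajc27 and Hspa2, lay between 0.09 and 0.90, with a median of 0.41 beside 0.44 for the 335 others. In lineage B140 the medians of those members were 0.21 and -0.04, and those of the other genes 0.16 and -0.04.

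**Figure D4:**
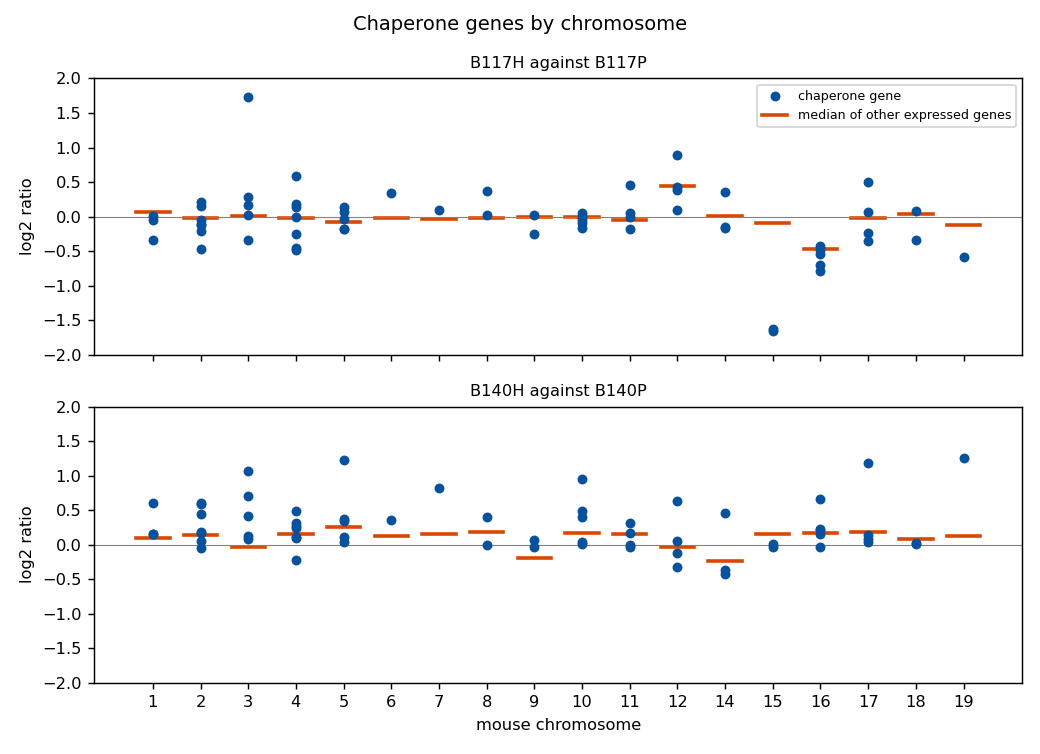
Log2 ratio of (FPKM + 1) of each member (points) and the median of the other expressed genes of its chromosome (short horizontal lines), for B117H against B117P above and B140H against B140P below. In lineage B117 the members on chromosomes 12 and 16 lie around the lines at 0.44 and -0.47, and both members on chromosome 15 lie near -1.6.

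The 24 nearest expressed genes of each member, 12 on either side, give the same comparison for the 7 members past the rule. Around Cct5 and Dnajc21 their median was -1.33 and -1.37 in lineage B117, and around Dnajb4, on distal chromosome 3, it was 0.92 there and 0.83 in lineage B140, where Dnajb4 itself was at 0.12. In lineage B140 it was 0.93 around Dnajb14, also on chromosome 3, and 0.80 around Dnajc30 on chromosome 5. It was 0.24 around Hspa1b on chromosome 17 and 0.20 around Dnajc4 on chromosome 19. After this median was subtracted, 0 of 63 members passed the 2-fold rule in lineage B117, beside 3.09% of all genes. Of the 4 in lineage B140 only Dnajc4 still passed, beside 3.06% of all genes. Whether DNA copy number or another cause acts on these segments was not tested.

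Between lineages a smaller share of members than of all genes was past 2-fold. B140P against B117P put 6 members past 2-fold, 9.52% beside 16.6% of all expressed genes (5.83% higher and 10.8% lower). B140H against B117H put 7 there, 11.1% beside 18.9% (9.69% higher and 9.19% lower). Dnajb2 passed in both, with log2 ratios of -1.29 and -1.14. Cct5, Hspa13, Dnajb4, Dnajb14 and Dnajc12 passed between the parents only, and Hsph1, Hspa1l, Hspb11, Dnajc19, Dnajc30 and Dnajc4 between the resistant lines only. Whether the lineages were normalised together is not given in the sources used here, which bears on these ratios more than on those within a lineage. The shares are descriptions, and members were more abundant than the average gene, with a median mean of 28.7 FPKM against 13.3.

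Taking the lineages as a pair, limma fitted to all expressed genes with the lineage as a block called 0 of the 63 members and 0 of 10066 genes at an adjusted p of 0.05. At an unadjusted p of 0.05 there were 1 member, 1.59%, and 2.17% of all genes. The member was Hspa1b, higher in 2 of 2 resistant lines, with a mean log2 ratio of 0.84, a standard error of 0.33 and a limma adjusted p of 0.9995. The next was Hspb11, also higher in both, with log2 ratios of 0.59 and 0.49. This fit rests on 1 residual degree of freedom.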

How the data were processed

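Cell lines were compared by RNA sequencing, 1 library per line. The deposited values are FPKM per gene; the submitters' processing notes name TopHat2 (2.0.4), Cuffdiff and mm9, while the part of each tool is not given in the sources used here. Deposited starts count from 0, and 1 was added. The members and lists were chosen with earlier results of these data known.

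Log2 ratios of (FPKM + 1) were computed for 10066 genes with a mean of at least 1 FPKM and read at 2-fold. Members were given in full when past 2-fold, most abundant or most changed in their family, or in the HSP90, HSP70, HSP110 and chaperonin families; others were added after their values were seen. limma 3.58.1 in R 4.3.3 was fitted with a mean-variance trend and the lineage, stated in the series design, as a block, adjusted by Benjamini-Hochberg, and tested on simulated data. With 1 line per group in a lineage, its p-values rest on single libraries. Estimated fragments come from a depth search between 10000000 and 30000000, with 72.5% to 83.7% of low values within 0.15 of a whole fragment. The search up to 40000000 placed more low values there, 79.6% against 74.0% in B117H and 84.8% against 72.5% in B140P. Transcript uniqueness used GENCODE vM21 transcripts and 50-base stretches. Scripts ran in Python (3.11.15) with scipy (1.17.1) for intervals, pandas (2.3.3) and numpy (2.4.6) for tables, and matplotlib (3.10.9) for plots. Alternatives were pseudocount, filter, fold rule, centring, TPM without small RNA genes and left-out libraries. Protein sequences were not used here.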

Additional observations from a re-analysis of the deposited data

Results flagged for a closer look

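The log2 ratio of Dnajb11 was -0.71 for the B117 lines and 0.65 for the B140 lines, and that of Dnajc4 was -0.58 and 1.26. They stand here because parent and derivative lay in opposite order in the lineages, by at least 0.5 in each. The difference between lineages was not tested, since each line is 1 library. Beside these values, the 323 other expressed genes on chromosome 16, where Dnajb11 lies, had medians of -0.47 and 0.16, and the 376 others on chromosome 19, where Dnajc4 lies, had -0.13 and 0.13. The part of these shifts in the 2 results was not tested.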

How the results depend on the processing

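No log2 ratio past the rule changed sign. Of 294 log2 ratios and medians recomputed, 19 had the opposite sign, all of them 0.12 or less in size before. Among them the members' median in lineage B117 became 0.01 on TPM without small RNA genes and 0.002 without overlapping or shared members, and Dnajb4 in lineage B140 became -0.70 with its neighbours subtracted. The count of members past the rule, 3 in lineage B117 and 4 in lineage B140, became 7 and 12 at 1.5-fold and 0 and 0 at 4-fold. In lineage B140 it was 2 with a minimum mean of 5 FPKM. The median log2 ratio of members in lineage B140 was 0.016 on TPM without small RNA genes. Alternatives added after seeing the data gave 0 and 1 members once the median of 24 neighbouring genes was subtracted, and 2 in lineage B140 without members that overlap an expressed gene or share over 10% of their 50-base stretches. The cause of the other moves was not tested. Centring on the median of all genes turned the family median in lineage B140 to -0.03 for TRiC, -0.01 for class A and -0.07 for HSP90, and Dnajb14 to 0.95. TPM without small RNA genes gave -0.08, -0.06 and -0.12 for these families. Genes called by limma were 4 with a minimum of 5 FPKM and 0 to 6 when 1 library was left out without the lineage block, 6 of them without B140P. Without the block and with all libraries, limma called 0 genes and 39 had an unadjusted p under 0.05. Members called stayed at 0 under every limma setting run. A heat shock element of 2 units was found in 25.5% of members and 17.0% of all genes. Estimated fragments limit Hspa1b, Dnajb4 and Dnajb14, whose lower line had 21, 19 and 32, or 42, 19 and 64 with the deeper search. The deeper depth search, also added after seeing the data, kept the interval of each of the 7 members past the rule on the same side of 1.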
